A study of Mus musculus with 14 samples.

Results

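The 9 genes described here mark successive steps by which the olfactory epithelium makes olfactory sensory neurons (OSNs), and they were taken by gene symbol from 51211 symbols measured in the olfactory epithelium of 14 mice at postnatal day 5 (P5). In order of the lineage they are Sox2, Neurog1, Neurod1, Hes6, Kit, Gap43, Gng8, Dpysl3 and Stmn2. RNA from the whole epithelium was sequenced in 2 separate experiments, one that silenced OSNs and one that exposed pups to an odor. In the Kir2.1 experiment, 3 mice carried OMP-IRES-tTA together with a tetO-Kir2.1-IRES-tauLacZ transgene, and 3 controls were heterozygous for OMP-IRES-tTA alone, so both groups carried the allele that places the tetracycline transactivator (tTA) at the Omp locus. Kir2.1 is an inward rectifier potassium channel that damps the firing of a neuron, and because tTA is made where Omp is transcribed, the transgene is placed mainly in mature OSNs and not in the dividing cells of the lineage. In the PEA experiment, 4 wild type pups were exposed in the home cage to 2-phenylethylamine (PEA), an aversive amine, from P0 to P5, and 4 wild type pups were controls. The labels give C57BL/6 as the strain of all mice, whereas the methods of the study name CD-1 pups for odor exposure, and the labels call the silenced group Kir2.1-Off although it was collected at P5.

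The olfactory epithelium keeps making neurons throughout life. Basal stem cells give rise to dividing progenitors, which pass through a precursor stage governed by proneural transcription factors of the basic helix-loop-helix (bHLH) family, and the daughter cells leave the cell cycle as immature neurons that extend an axon to the olfactory bulb. Only later do they switch on Omp, olfactory marker protein, together with the machinery of odor transduction. The immature stage is commonly followed through Gap43 and the mature stage through Omp, so levels of the genes of each stage reflect both how many cells are in it and how strongly they transcribe those genes.

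The members divide into 3 stages. Sox2, a transcription factor of stem and progenitor cells that is also present in sustentacular cells, stands for the progenitor stage (GRCm38 chr3:34650405-34652461, plus strand). The precursor stage is represented by 4 genes. Neurog1 (chr13:56250478-56252163, minus strand) and Neurod1 (chr2:79452521-79456751, minus strand) encode proneural bHLH factors that act one after the other, Hes6 (chr1:91411483-91414038, minus strand) encodes a Hes family protein that favors neuronal differentiation, and Kit (chr5:75574916-75656722, plus strand) encodes the receptor for stem cell factor. The immature neuron stage is represented by the other 4. Gap43 (chr16:42248442-42340651, minus strand) encodes a protein of growth cones, Gng8 (chr7:16891786-16895436, plus strand) a G protein gamma subunit of immature OSNs, Dpysl3 a collapsin response mediator protein of growing axons, and Stmn2 (chr3:8509360-8561606, plus strand) a stathmin that binds tubulin. All are protein-coding genes, and the positions are those of the whole gene.

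Proneural factors bind the E-box, a 6-base motif written CANNTG, and the regions just before the starts of the precursor genes are shown here because Neurog1 and Hes6 varied together among mice, as described further on. RefSeq promoter sequence (GRCm38.p6) was at hand for 6 of the 9 members. Windows of 250 bases before the start were searched on both strands, and 66.2% of all 32851 promoters in that table hold at least 1 E-box. In the sequences below, written 5' to 3' on the strand of the gene, capitals mark each E-box. Hes6 has 2 starts in the table. The window of the first (chr1:91414039-91414288) holds 3 E-boxes, and that of the second (chr1:91413223-91413472) holds 1. The Neurod1 window is printed only where it lies outside annotated exons (chr2:79456752-79456886, 135 bases) and holds 1 E-box. The Neurog1 window (chr13:56252181-56252430) holds none and has a single TAATTA, a motif of homeodomain factors found in 4.84% of all promoters.
Hes6 first start: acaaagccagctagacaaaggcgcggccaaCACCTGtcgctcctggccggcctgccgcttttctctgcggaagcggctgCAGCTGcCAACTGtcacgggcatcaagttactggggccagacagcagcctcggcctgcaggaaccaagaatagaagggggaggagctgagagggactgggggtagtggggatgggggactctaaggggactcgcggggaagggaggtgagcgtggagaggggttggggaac
Hes6 second start: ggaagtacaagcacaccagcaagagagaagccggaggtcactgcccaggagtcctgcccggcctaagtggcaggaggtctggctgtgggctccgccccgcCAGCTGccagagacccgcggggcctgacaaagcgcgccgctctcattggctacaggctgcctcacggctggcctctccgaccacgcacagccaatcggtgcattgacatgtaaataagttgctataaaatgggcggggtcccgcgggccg
Neurod1: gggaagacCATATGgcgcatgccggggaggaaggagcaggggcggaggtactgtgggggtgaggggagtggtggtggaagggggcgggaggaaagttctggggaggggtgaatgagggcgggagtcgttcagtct
Neurog1: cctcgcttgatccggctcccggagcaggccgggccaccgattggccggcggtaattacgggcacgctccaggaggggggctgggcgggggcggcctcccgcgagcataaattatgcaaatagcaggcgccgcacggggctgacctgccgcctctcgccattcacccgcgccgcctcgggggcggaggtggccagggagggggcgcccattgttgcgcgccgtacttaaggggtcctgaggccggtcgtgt
These letters describe the windows and say nothing about which factor binds there or why Neurog1 and Hes6 varied together. No E-box was found in the windows of Sox2, Kit or Gng8.

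Values are normalized counts, which are Salmon estimates per gene scaled between libraries by the authors, and a change is a difference of log2(normalized count + 1) with its standard error (SE). The sum of a mouse lay between 33049100 and 34198500 in the Kir2.1 experiment and between 11476100 and 12467300 in the PEA experiment, but it comes after scaling and does not give the depth of the library, which is unknown. All 9 members passed the minimum mean of 10 in both experiments. Kcnj2, the gene of Kir2.1, did not exceed 1274 in any control (lowest 986) and was never below 17926 where the transgene was carried (highest 24193), as the labels require. Some libraries stood apart in RNA of the vomeronasal organ, a neighboring sense organ. The mean log2 level of vomeronasal receptor genes was 6.06 in Kir2.1 control mouse 1 and from 2.35 to 2.45 in the other mice of that experiment (95 genes). In the PEA experiment (126 genes) it was 5.77, 4.68, 3.91 and 1.38 in controls 1 to 4, 5.33 for exposed mouse 1 and from 1.38 to 1.66 in the other exposed mice.

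Gap43 and Dpysl3, of the immature stage, led the order of levels in both sets of control mice when values were divided by the joined length of all annotated exons. Gng8, of the same stage, lay below Hes6 and Sox2 in both. In the Kir2.1 controls, Gap43 was the highest with 5357 ± 422 normalized counts per kb (SD, n = 3), followed by Dpysl3 at 4654 ± 123 and Hes6 at 3625 ± 224. Sox2 (2435 ± 151 per kb) and Stmn2 (2400 ± 263 per kb) came next and overlapped between mice. Below them lay Gng8 at 1684 ± 64.2 per kb. Neurog1 (803 ± 226 per kb) and Neurod1 (726 ± 137 per kb) overlapped with each other, and Kit was the lowest at 285 ± 95.8 per kb. Every other pair of neighbors in this order was separated between mice. The order depends on the length used, which is that of all annotated exons of a gene joined. For Stmn2 that is 5.602 kb, but its longest protein-coding transcript has 2073 bases. For Gng8 the joined exons have 1.522 kb and that transcript 910 bases. The lead of Gap43 and Dpysl3 and the places of Stmn2 and Gng8 thus hold for joined exons only. An order by transcript length was not computed.

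**Figure D1:**
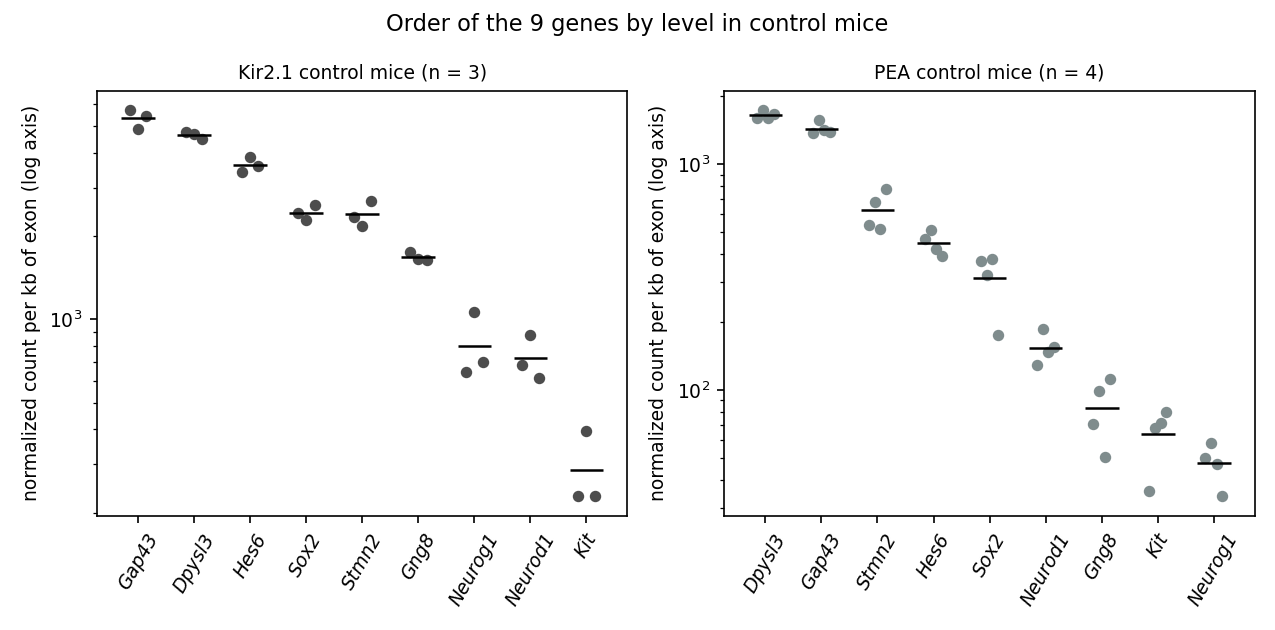
Levels of the 9 genes in control mice as normalized counts per kb of exon on a log axis, with a point for each mouse and a bar at the mean, in order of the mean within each experiment. Gap43 and Dpysl3 take the first places in both panels, and Neurog1, Neurod1 and Kit lie low.

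The PEA controls gave a similar but not identical order. Dpysl3 (1656 ± 68.2 per kb, n = 4) lay above Gap43 (1441 ± 93.2 per kb), and Stmn2 (627 ± 125 per kb) above Hes6 (449 ± 52.0 per kb). Sox2 (313 ± 95.1 per kb) overlapped with Neurod1 (154 ± 23.8 per kb). Gng8 (83.2 ± 27.9 per kb), Kit (63.8 ± 19.2 per kb) and Neurog1 (47.3 ± 10.2 per kb) formed the end of the order, each overlapping the next. The libraries of the experiments were made differently, from poly-A RNA in one and from RNA depleted of ribosomal RNA in the other, and each table was normalized alone. Levels are for that reason compared only within an experiment.

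The first comparison asked whether silencing mature OSNs altered the stages before them. None of the 9 members changed in the Kir2.1 mice (limma, adjusted p from 0.624 to 0.990), where 0.353% of the 19807 genes tested did, and 0 of 9 reached an unadjusted p under 0.05, against 11.1% of all genes. The groups overlapped for all 9, whereas they did not overlap for 16.3% of all genes. In RNA of whole tissue, fewer cells of a type and less RNA per cell cannot be told apart, and an unaltered level cannot separate them either.

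Sox2, the progenitor gene, was at 5013, 4696 and 5316 normalized counts in control mice 1 to 3 and at 4390, 5327 and 5263 in Kir2.1 mice 1 to 3. The silenced mice spanned the range of the controls on both sides (log2 difference -0.01, SE 0.10, 95% interval from -0.23 to 0.22).

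Among the precursor genes, Neurog1 was at 1085, 1789 and 1187 in the controls and at 1215, 1042 and 1300 in the Kir2.1 mice. A single control mouse, number 2, lay far above the rest, and the difference was -0.16 (SE 0.19, limma adjusted p = 0.836). Neurod1, the next factor of the cascade, was at 1868, 2400 and 1677 in the controls and at 1582, 1774 and 1681 in the Kir2.1 mice. Control mouse 2 was again the highest, and the silenced mice lay in the lower part of the control range or just under it (log2 difference -0.22, SE 0.13, limma adjusted p = 0.624), the largest difference among the 9. Without control mouse 2, the Neurog1 difference was 0.06 and that of Neurod1 -0.08.

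Hes6 held a narrow range, with 6168, 6975 and 6519 in the controls and 6278, 6689 and 7095 in the Kir2.1 mice (log2 difference 0.03, SE 0.08, 95% interval from -0.15 to 0.21). Kit was the most scattered of the members, at 2038, 3522 and 2048 in the controls and 2228, 2513 and 3158 in the Kir2.1 mice. Its highest value belonged once more to control mouse 2, and the interval of the difference ran from -0.45 to 0.63. Kit is also a gene of mast cells and melanocytes. Of the mast cell list, 6 of 7 genes had a mean under 10, with Cpa3 between 1.85 and 12.1, and only Hdc, the enzyme that makes histamine, was higher. Melanocyte genes summed to between 68.9 and 96.2 in any mouse of the experiment, most of it Pmel, a melanosome protein, at 45.8 to 76.8. The part of these cells in the Kit level was not tested.

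The immature neuron genes differed by 0.10 or less. Gap43 was at 8735, 7466 and 8275 in the controls and at 7003, 7529 and 9420 in the Kir2.1 mice (log2 difference -0.04, SE 0.12). Gng8 was at 2676, 2511 and 2503 in the controls and at 2401, 2526 and 2917 in the Kir2.1 mice (log2 difference 0.02, SE 0.09). In both, the silenced mice extended above and below the controls.

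Dpysl3 (chr18:43320984-43438286, minus strand) was at 31375, 31053 and 29834 in the controls and at 27615, 31328 and 34810 in the Kir2.1 mice (log2 difference 0.02, SE 0.10). Stmn2 was at 13111, 12161 and 15055 in the controls and at 12001, 14261 and 17378 in the Kir2.1 mice (log2 difference 0.10, SE 0.14, limma adjusted p = 0.868). Kir2.1 mouse 3 was the highest and Kir2.1 mouse 1 the lowest of the experiment in all 4 immature neuron genes. With 3 mice against 3, an exact permutation test cannot give a two-sided p under 0.1, and it gave from 0.3 to 0.9 for the 9 members.

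**Figure D2:**
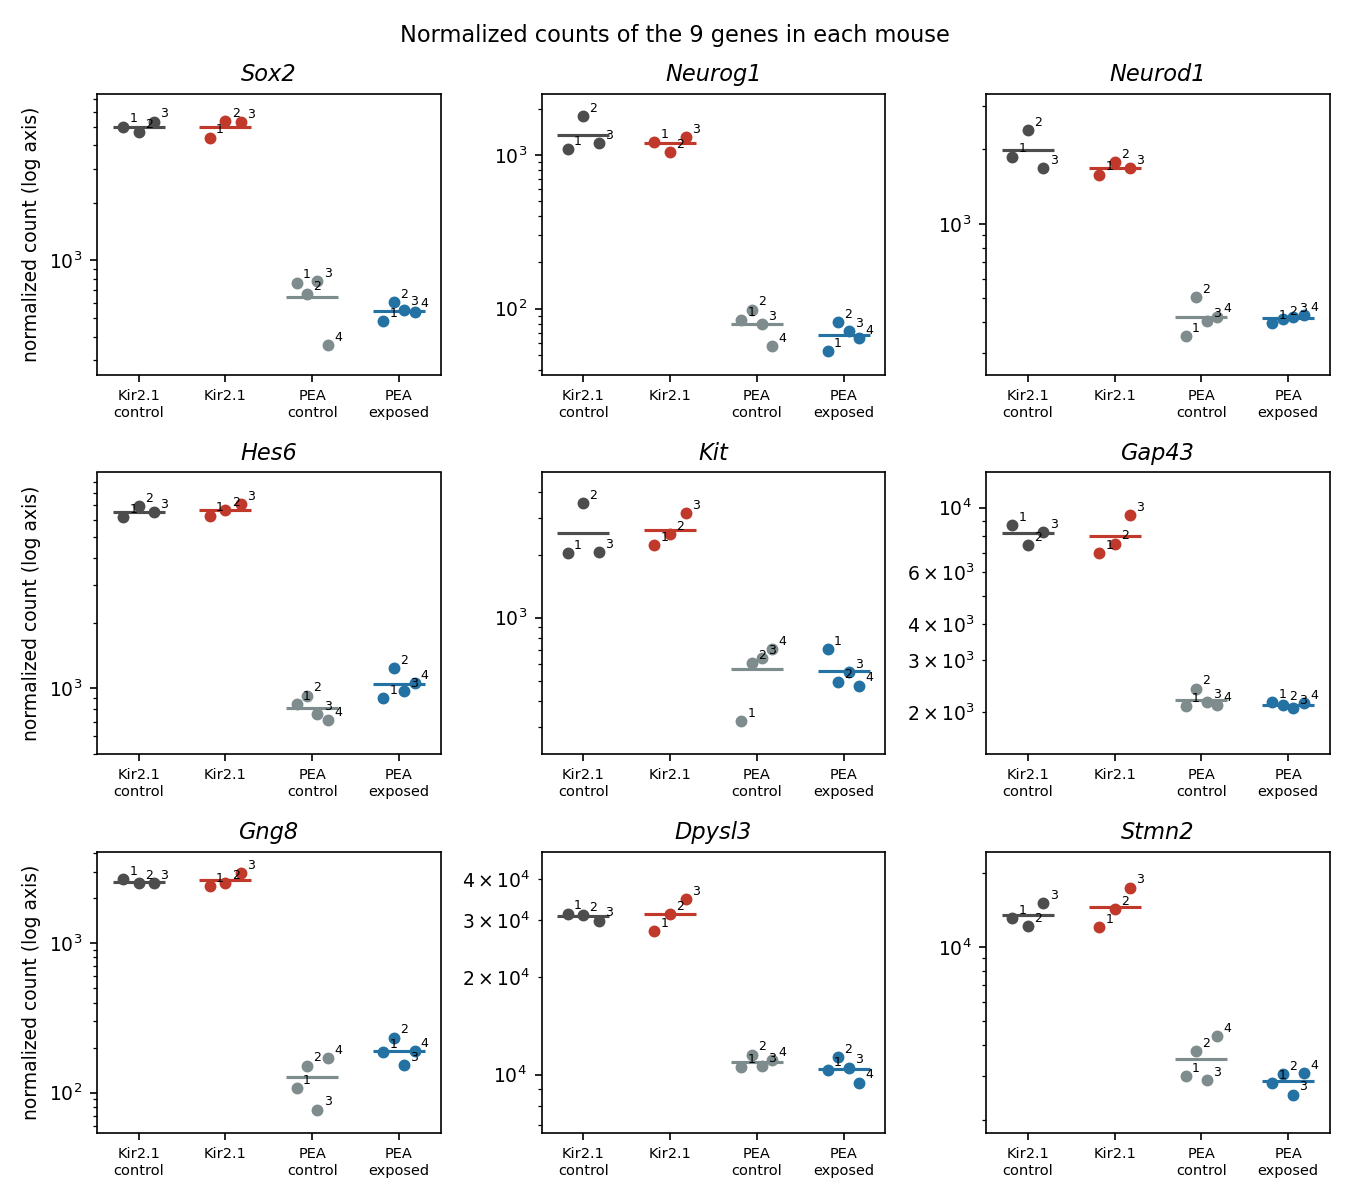
Normalized counts of the 9 genes on log axes, with a numbered point for each mouse and a bar at the group mean, for Kir2.1 controls and Kir2.1 mice (3 each) and PEA controls and PEA-exposed mice (4 each). The groups of each experiment overlap in every panel. Of the 4 exposed mice, 3 lie above all controls for Hes6 and for Gng8, and 3 lie below all controls for Dpysl3.

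The mature stage stood in contrast. Omp was at 31936, 31853 and 36226 in the controls and at 21062, 21452 and 23516 in the Kir2.1 mice, and it fell by 0.60 on the log2 scale (SE 0.08, limma adjusted p = 0.0466). Every silenced mouse lay under every control. Of 18 genes of mature OSNs, 4 fell (Omp; Slc17a6, the vesicular glutamate transporter VGLUT2; Pde1c, the phosphodiesterase of OSN cilia; and Umodl1), with log2 differences from -0.76 to -0.60, and none rose. The share of all genes called lower was 0.278%. The median over the list was -0.41, the median over all genes 0.01, and 15 of the 18 did not overlap between groups in the lower direction, as compared with 9.04% of all genes. The list was chosen with earlier results of these data known, so its shares beside those of all genes are a description. The 4 calls rested on few mice. Omitting each mouse in turn left from 0 to 3 of the list called, namely 0 without control mouse 1, control mouse 2 or Kir2.1 mouse 1, 1 without control mouse 3 or Kir2.1 mouse 2, and 3 without Kir2.1 mouse 3, and the adjusted p of Omp was then between 0.0704 and 0.175. The list also fell to 0 called without a variance trend (Omp adjusted p = 0.148), with the replicate block (0.0799) and with the vomeronasal level as a covariate (0.146), and Omp alone lost its call with a pseudocount of 5 (0.0531) or without a filter (0.0525). All 18 stayed below 0 each time, and the median lay between -0.45 and -0.38 over all alternatives tried.

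The intervals of the members can be set beside these changes. For 8 of the 9, the whole 95% interval lay above the Omp difference of -0.60, the exception being Neurog1 with a lower limit of -0.61. The Omp difference has its own interval, from -0.79 to -0.40, and those of Neurod1 (lower limit -0.54) and Kit (-0.45) also reached into it. No test between members and Omp was run. For 6 of the 9 (Sox2, Hes6, Gap43, Gng8, Dpysl3 and Stmn2), the interval also lay above the median of the mature list. For Neurog1, Neurod1 and Kit, a fall as large as that median was not distinguishable at this spread. Relative to the mean log2 level of the mature list in the same mouse, 6 of the 9 members were higher in all Kir2.1 mice than in any control. The same was true of 62.2% of all genes tested, as the mature mean itself fell by 0.43, so this shift was not particular to the members.

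**Figure D3:**
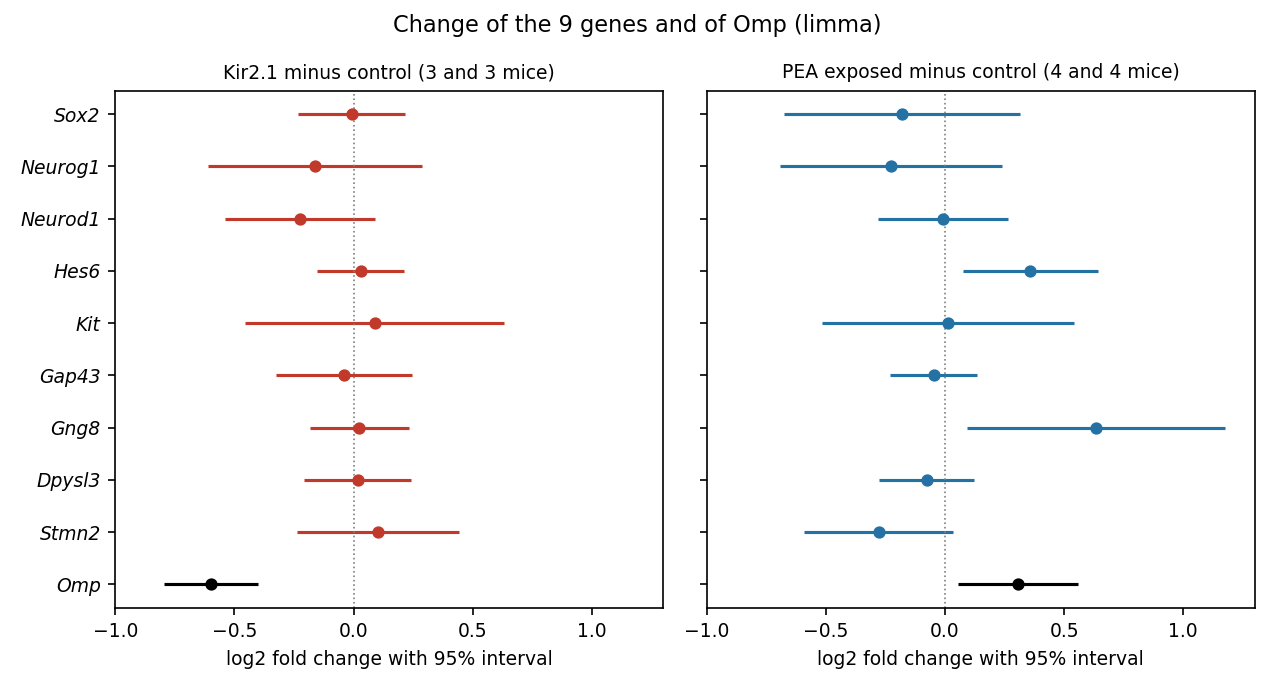
Log2 fold changes of the 9 genes and of Omp with 95% intervals from limma, for Kir2.1 minus control (left) and PEA exposed minus control (right). All 9 intervals span 0 on the left, where Omp is at -0.60, and on the right those of Hes6, Gng8 and Omp lie above 0 before adjustment.

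Wider lists of the same stages gave the same picture of the Kir2.1 mice. Of 23 further precursor genes, 0 changed by limma and 1 had an unadjusted p under 0.05, against 11.1% of all genes. That gene was Myt1, a zinc finger factor of differentiating neurons (log2 difference -0.33, SE 0.12, adjusted p = 0.371), while Hes5, a target of Notch, had the largest difference (-0.44, SE 0.24, adjusted p = 0.563). The list median was -0.07. Of 19 further immature neuron genes, 0 changed and 0 had an unadjusted p under 0.05, and the median was -0.01. The extremes were Ncam1, a cell adhesion molecule (-0.21), and Gnas, the G protein alpha subunit used before Gnal (0.20). None of 10 genes of cell division changed either (0 with an unadjusted p under 0.05, median 0.05), with Bub1, a spindle checkpoint kinase, at 0.16 and Pcna, the sliding clamp of DNA replication, at -0.15.

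**Figure D4:**
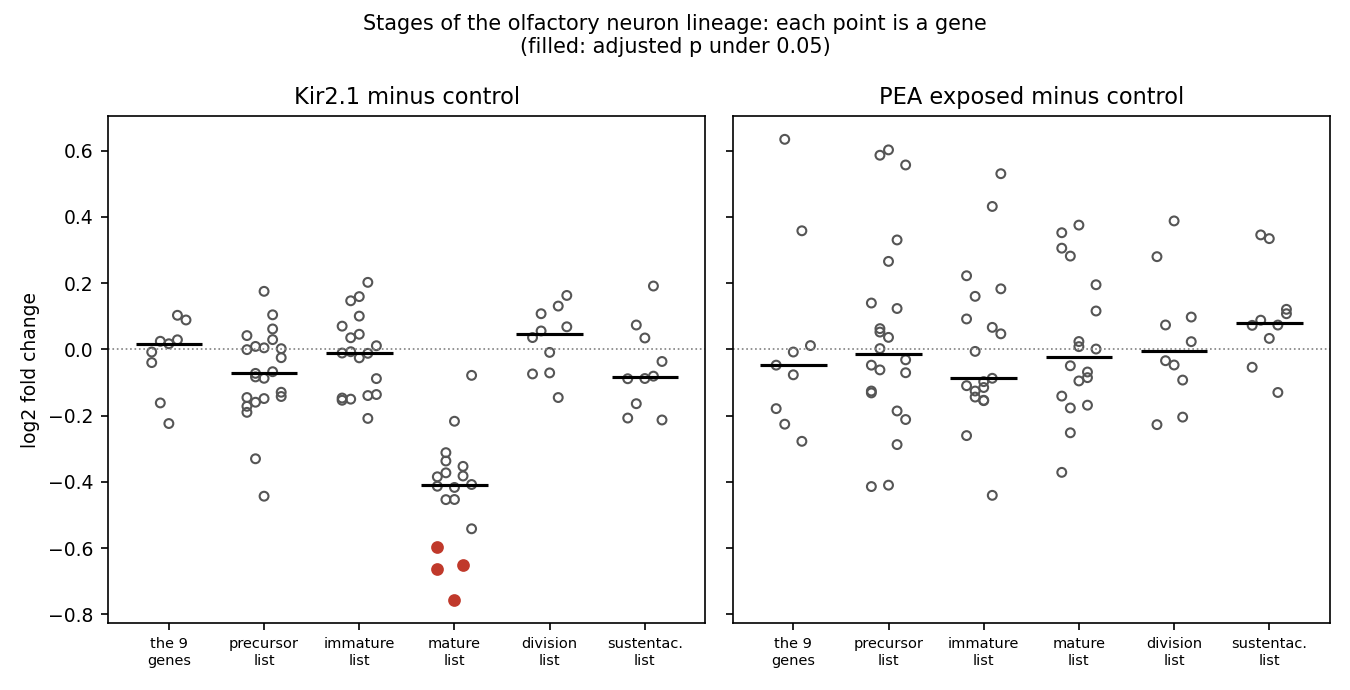
Log2 fold change of each tested gene in the 9 members and in lists of precursor, immature neuron, mature OSN, cell division and sustentacular cell genes, with a bar at the median and filled points for an adjusted p under 0.05. In the Kir2.1 experiment (left) the mature list has its median at -0.41 and holds the 4 filled points, and in the PEA experiment (right) no gene of these lists is filled.

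Other cell types of the tissue gave their own values. All 6 genes of horizontal basal cells, the reserve stem cells that also express Sox2, were above 0 in the Kir2.1 mice, from 0.32 to 0.63, with 0 called. Cav1, which encodes caveolin (0.63, SE 0.16), and Krt15, a keratin (0.60, SE 0.87), led them, and the defining keratins Krt5 and Krt14 were at 0.42 and 0.32. The Krt15 difference rested on 1 Kir2.1 mouse at 4042. The median of the Kir2.1 mice was 479 and that of the controls 714. Their summed level ranged from 4155 to 6187 in the controls. It was 11661 in Kir2.1 mouse 1, and 6161 and 4679 in Kir2.1 mice 2 and 3, which lay within the range of the controls. The 10 genes of sustentacular cells, which express Sox2 as well, had a median of -0.08 with 0 called, and Aldh1a7, an aldehyde dehydrogenase, and Cyp2g1, a cytochrome P450, were both at -0.21. Genes of respiratory epithelium had a median of 0.40, also with 0 called, led by Dnah5, a dynein of motile cilia (0.66), and Bpifa1, a secreted defense protein (0.42). The part of these cells in the Sox2 level was not tested.

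The second comparison asked whether early exposure to PEA altered the lineage. Again 0 of the 9 members changed (limma, adjusted p from 0.237 to 0.988), and 0.179% of the 17322 genes tested did. An unadjusted p under 0.05 was reached by 2 of the 9, Hes6 and Gng8, both higher in exposed mice, while 15% of all genes reached it and 8.93% did so in the higher direction. The groups overlapped for all 9, and did not overlap for 9.32% of all genes.

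Hes6 was at 845, 927, 764 and 713 in controls 1 to 4 and at 900, 1247, 970 and 1060 in exposed animals 1 to 4. Of the exposed mice, 3 lay above every control, and mouse 1 lay within their range. The log2 difference was 0.36 (SE 0.13, 95% interval from 0.08 to 0.64, limma adjusted p = 0.237), and an exact permutation test gave a two-sided p of 0.0571, where the smallest possible is 0.0286.

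Gng8 was at 107, 151, 77.0 and 171 in the controls and at 186, 233, 153 and 190 in the exposed mice. Here too 3 exposed mice lay above every control, with mouse 3 inside the range. The log2 difference was 0.63 (SE 0.24, 95% interval from 0.09 to 1.18, limma adjusted p = 0.270), and the exact permutation p was 0.0571. With each mouse left out it ranged from 0.42 (without control 3) to 0.80. Against control mouse 4 alone, the only control without high vomeronasal RNA, and without exposed mouse 1, it was 0.15, and that of Hes6 was then 0.61.

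The other precursor and progenitor genes showed no such shift. Sox2 was at 766, 664, 782 and 361 in the controls and at 484, 604, 554 and 540 in the exposed mice. Control mouse 4 was the lowest of all and the other controls were above every exposed mouse, giving -0.18 (SE 0.22, limma adjusted p = 0.748). Without control mouse 4 it was -0.44 (limma adjusted p = 0.126), and it ranged up to -0.06 with another mouse left out. Without the libraries with high vomeronasal RNA, control mouse 4 was the only control left, set against 3 exposed mice, and the Sox2 difference turned to 0.65. It rests on a single control, whose spread is assumed to equal that of the exposed mice, so no test is given. The part of vomeronasal RNA was not tested.

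Neurog1 was low in this experiment, with 84.2, 98.6, 79.5 and 57.0 in the controls and 53.1, 81.8, 71.5 and 64.2 in the exposed mice (log2 difference -0.23, SE 0.21, limma adjusted p = 0.654). It too turned, to 0.33, against control mouse 4 alone, and was -0.38 without that mouse and -0.12 without control 2 or exposed mouse 1. Neurod1 was at 351, 508, 404 and 423 in the controls and at 398, 413, 423 and 428 in the exposed mice, which lay together in the middle of the control range (log2 difference -0.01, SE 0.12). Kit was at 319, 607, 638 and 709 in the controls and at 709, 491, 550 and 473 in the exposed mice, so that both groups covered much the same span (log2 difference 0.01, SE 0.24). It was at -0.49 without the same libraries, and at -0.24 without control mouse 1, the lowest.

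The remaining immature neuron genes had differences below 0, from -0.05 to -0.28. Gap43 was at 2098, 2402, 2167 and 2110 in the controls and at 2158, 2120, 2055 and 2148 in the exposed mice (log2 difference -0.05, SE 0.08, 95% interval from -0.23 to 0.14). Dpysl3 was at 10567, 11520, 10600 and 11074 in the controls and at 10294, 11308, 10506 and 9445 in the exposed mice (log2 difference -0.08, SE 0.09). Of the exposed mice, 3 lay below every control for Dpysl3. Stmn2 was at 3003, 3796, 2890 and 4370 in the controls and at 2803, 3058, 2526 and 3079 in the exposed mice. Controls 2 and 4 lay above every exposed mouse, and the log2 difference was -0.28 (SE 0.14, 95% interval from -0.59 to 0.03, limma adjusted p = 0.386). It was -0.17 without control mouse 4 and -0.60 against that mouse alone without exposed mouse 1. The Gng8 and Stmn2 differences thus had opposite signs within the immature stage.

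The PEA differences moved with the base composition of the transcripts. Across genes, Pearson's r between transcript GC content and log2 difference was 0.36 in the PEA experiment and 0.10 in the Kir2.1 experiment (genes are not independent replicates). With genes ranked by GC content and divided into 5 equal parts, the median difference rose from -0.17 in the lowest part to 0.26 in the highest. An index was taken for each mouse, the median deviation of GC-rich genes minus that of GC-poor genes. It was -0.10, -0.16, -0.26 and -0.35 for PEA controls 1 to 4 and 0.01, 0.54, 0.15 and 0.15 for exposed animals 1 to 4, so the groups did not overlap in it. Hes6 (60.3% GC) lies at percentile 96.8 of the tested genes in GC content, Neurog1 (58.0%) at 91.3 and Gng8 (56.9%) at 87.4, and Neurod1 (43.6%) and Stmn2 (46.1%) are the poorest in GC among the members.

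**Figure D5:**
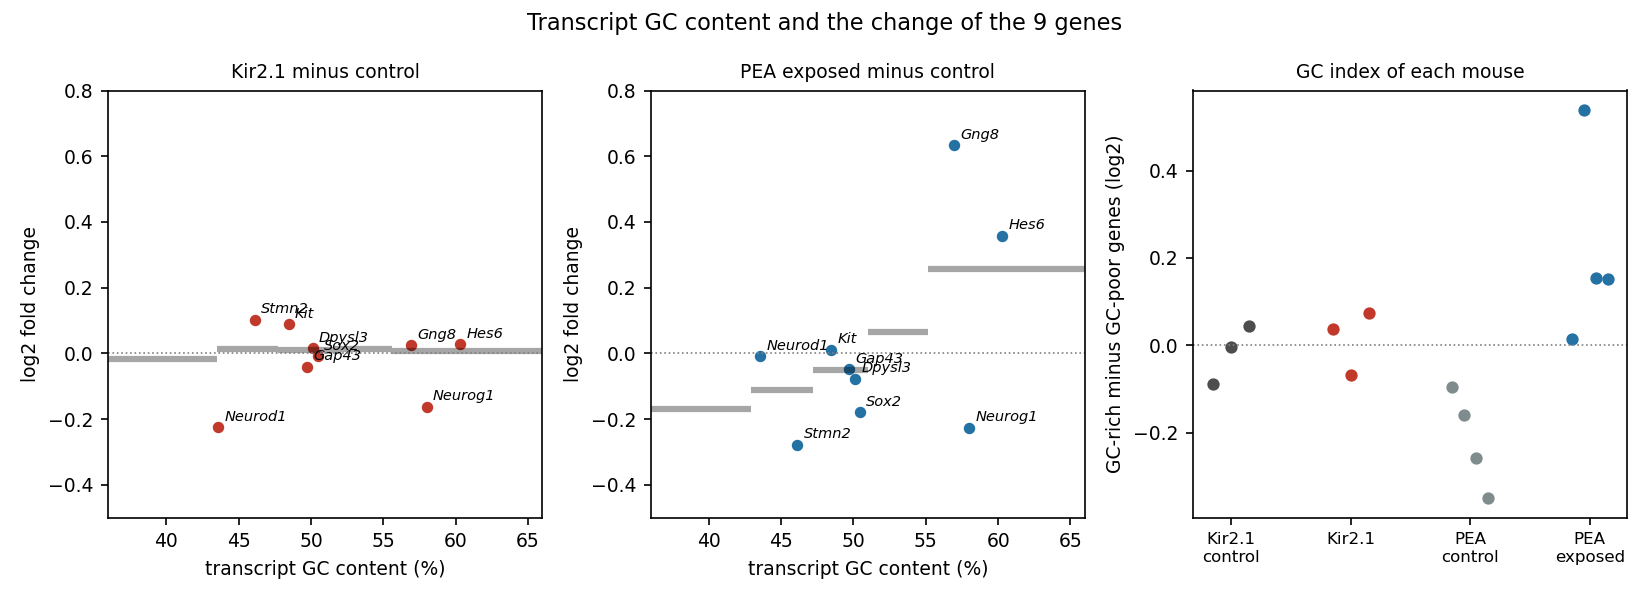
Log2 fold change of the 9 genes against transcript GC content in the Kir2.1 experiment (left) and the PEA experiment (middle), with grey bars at the median of all genes in each of 5 ranges of GC content, and the GC index of each mouse (right). The grey bars rise from -0.17 to 0.26 in the PEA experiment only, and the exposed mice all have a higher index than the controls.

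Over the 8 mice of the PEA experiment, Hes6 followed the index with r = 0.95, Gng8 with r = 0.63 and Stmn2 with r = -0.50, given as a description since the mice share the split into groups. With the trend on GC content removed from each library, the Hes6 difference was 0.02 (limma unadjusted p = 0.861), that of Gng8 0.41 (limma unadjusted p = 0.108) and that of Stmn2 -0.18. Neurog1, the second richest in GC, was then at -0.50 (limma unadjusted p = 0.0247) and was the only member with an unadjusted p under 0.05, while 9.76% of all genes had one. In the Kir2.1 experiment 0 members had one with the trend removed, where 11.6% of 19399 genes did.

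The wider lists were examined in the PEA experiment with and without that trend. Of 22 precursor genes tested, 0 changed and 5 had an unadjusted p under 0.05, against 15% of all genes. Higher were Rcor2, a cofactor of the repressor REST (0.59), Tead2, a transcription factor of the Hippo pathway (0.56), and Btg2, an antiproliferative gene (0.33), and lower were Ezh2, a histone methyltransferase (-0.41), and Emx2, a homeodomain factor (-0.41). With the trend removed, Rcor2 was at 0.21 and Tead2 at 0.29, and Btg2 (0.36), Ezh2 (-0.29) and Emx2 (-0.46) still had an unadjusted p under 0.05. With that correction Insm1, a zinc finger factor of precursors (-0.58, from -0.19 before it), Nhlh1, a bHLH factor (-0.35, from -0.21), and Ebf4, an early B-cell factor (-0.34, from 0.06), also had one. Of the list, 1 gene was then higher and 5 were lower, 0 were called, and 9.76% of all genes had an unadjusted p under 0.05. Mxd3, a partner of Max in the precursor list, had the largest difference (0.60, limma adjusted p = 0.341).

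Of 19 immature neuron genes, 0 changed. An unadjusted p under 0.05, which 15% of all genes had, was reached by Dbn1, the actin-binding protein drebrin (0.53), and Tubb3, the neuronal beta tubulin (0.43). They were at 0.25 and 0.17 with the trend removed. Marcksl1, a MARCKS-like protein (-0.39, from -0.12), and Gnas (-0.20, from 0.07) were then the 2 genes with an unadjusted p under 0.05, both lower, and 0 were called. The share of all genes was then 9.76%. Chl1, an adhesion molecule of the L1 family, was at -0.44 (limma adjusted p = 0.566), and the median of the list was -0.09. Of 18 mature genes, 0 changed, with a median of -0.02. Omp was at 6726, 7127, 6087 and 7326 in the controls and at 7510, 10082, 8427 and 7821 in the exposed mice (log2 difference 0.31, SE 0.11, limma adjusted p = 0.252), and at 0.07 with the trend removed. Gnal, the G protein alpha subunit of odor transduction, was at -0.37 and at -0.33 with the trend removed, Ric8b, its exchange factor, was at -0.25, and Faim2, an inhibitor of apoptosis, at 0.38. Of 10 cell division genes, 0 changed. Mcm2, a subunit of the replicative helicase, was at 0.39 (0.22 with the trend removed) and Aurkb, a mitotic kinase, at 0.28.

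Other cell types were also measured in the PEA experiment. The 6 horizontal basal cell genes ranged from 0.0027 to 0.63 with 0 called, and Krt14 (0.62, limma adjusted p = 0.108) and Krt5 (0.63, limma adjusted p = 0.142) led them. Their summed level lay between 1333 and 2366 in the controls and between 1709 and 2282 in the exposed mice. Of 10 sustentacular genes, 0 changed and 2 had an unadjusted p under 0.05, against 15% of all genes. They were Cyp1a2, a cytochrome P450 (0.35), and Notch2, a Notch receptor (0.33). Genes of respiratory epithelium had a median of 0.51 with 0 called, and Muc5b, a mucin (0.65), and Tmem212 (0.60) led them. Melanocyte genes summed to at most 39.5 in a mouse, and Cpa3 did not exceed 11.4.

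Genes of glia, vomeronasal neurons and brain neurons were measured to show what else the tissue held, and 0 were called in either experiment. In glia, S100b was at 0.48 and Frzb at -0.30 in the Kir2.1 experiment, and Fabp7 at -0.41 in the PEA experiment. Among vomeronasal neuron genes, Trpc2, the channel of these neurons, was at -1.16 in the Kir2.1 experiment, where all controls (283 to 528) lay above the Kir2.1 mice (145 to 225). Tfap2e was at -1.71, with control values of 0, 1.97 and 98.4 in rising order. The control with high vomeronasal receptor RNA is on one side of both differences, and its part was not tested. Calr4 was at -1.09 and Meis2 at -0.14 in the PEA experiment. Among brain neuron genes, Tbr1 was at -0.44 and Slc17a7 at -0.31 in the Kir2.1 experiment, and Eomes at -0.41 and Gad2 at 0.04 in the PEA experiment. Of the markers of cells that express Kit, Hdc was at -0.05 and -0.30, Pmel at 0.06 and 0.95, and Tyr at 0.07 in the Kir2.1 experiment.

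The effects of silencing and of exposure were compared directly as the difference of both differences, in a single limma model over the 14 mice. None of the 9 members differed, and 0.443% of 16705 genes did. The largest were Gng8, with a Kir2.1 effect lower by 0.61 than the PEA effect (SE 0.31, limma adjusted p = 0.421), Stmn2, higher by 0.38 (SE 0.22, limma adjusted p = 0.480), and Hes6, lower by 0.33 (SE 0.16, limma adjusted p = 0.411). For Gap43 the interval was narrow, from -0.30 to 0.31. The other members differed by between -0.22 and 0.17. The experiments also differed in library type, and in strain if the methods rather than the labels are followed, and neither can be told apart from the treatments.

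The members differed in how much they varied between mice of 1 group. The within-group SD on the log2 scale was smallest for Hes6 in the Kir2.1 experiment (0.09) and for Gap43 (0.07) and Dpysl3 (0.09) in the PEA experiment. It was largest for Kit in both (0.37 and 0.41), with Gng8 (0.40) and Sox2 (0.38) next in the PEA experiment. The median over all tested genes was 0.18 in the Kir2.1 and 0.26 in the PEA experiment. Gng8, at 0.11, was among the steady members in the Kir2.1 experiment.

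Deviations from the group mean were compared across the 14 mice as a description, as mice of an experiment share library preparation and composition. Gng8 and Stmn2, both of the immature stage, varied together most closely (r = 0.81 over 14 mice, 0.75 within the Kir2.1 and 0.93 within the PEA experiment). Neurog1 and Hes6, whose promoter windows are printed above, came next (r = 0.79, and 0.70 and 0.87 within the experiments). Their transcripts are the richest in GC among the members (58.0% and 60.3%), and the part of the GC trend in this r was not tested. Neurod1 and Kit gave r = 0.65 (0.85 and 0.51), and Gap43 and Dpysl3 gave 0.63 (0.82 and 0.26). Several pairs had opposite signs in the experiments. Among them were Sox2 and Stmn2 (0.86 in the Kir2.1 and -0.76 in the PEA experiment), Hes6 and Kit (0.89 and -0.50), and Neurog1 and Kit (0.88 and -0.48). PEA control mouse 4 had the largest deviation of its experiment for both Sox2 (-0.77) and Stmn2 (0.34).

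Of 16696 genes, those whose deviations were most like the members were listed by stage over the same 14 mice. For Sox2 they were Klhdc2 (r = 0.98), Smim19, Rcn2, St13 and Sap18b, all at 0.96 or more. For the mean of the precursor members they were Nsg2 (r = 0.87), Zdhhc14, Prmt8, Gdf11 and Ap4m1 (0.85). For the mean of the immature members they were Sdk1 (r = 0.94), Atf5, Hdac5, Cdh4 and D430019H16Rik (0.90). None of these genes was in the lists above. The largest Sox2 deviation was that of PEA control mouse 4 (-0.77), and the next was that of PEA control mouse 3 (0.34). The r values for Sox2 thus rest much on control mouse 4.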

How the data were processed

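The deposited values were normalized counts, a signal per gene symbol in a table for each experiment. Per the labels and the methods of the study, the authors quantified reads with Salmon 1.3.0 against mouse transcripts (Ensembl 100), summed them per gene and scaled them with DESeq2 1.30.0. Salmon was run with its sequence and GC bias models. Poly-A RNA gave unstranded libraries for Kir2.1 and rRNA-depleted RNA stranded ones for PEA, although 1 Salmon strand setting is stated for all. Raw counts and depth are unknown, so count tests were not run.

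Genes with a mean of at least 10 were tested within each experiment on log2(normalized count + 1) with limma 3.58.1 in R 4.3.3 (mean-variance trend, Benjamini-Hochberg adjustment over all tested genes, threshold 0.05), and checked on simulated data. Each sample is 1 mouse. Exact permutation tests were two-sided. Positions, exon lengths and GC content came from GENCODE vM21 (GRCm38), and promoters from RefSeq. The vomeronasal level is the mean log2 value of tested receptor genes, high above 3. The GC trend was removed by loess with a span of 0.3. Figures used Python 3.11.15 and matplotlib 3.10.9.

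The members and gene lists were chosen with earlier results of these data known. Named from each list were all genes called and the 2 largest differences in each experiment, as well as genes with an unadjusted p under 0.05 in the lineage lists, chosen after their values were seen, and the 5 genes most alike for each stage. A gene of the glia list is not reported here. Alternatives were other pseudocounts, filters, scalings, variance models, covariates and omitted mice, and, added after seeing the data, GC correction, the lists and Omp under each alternative.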

Additional observations from a re-analysis of the deposited data

Results flagged for a closer look

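The vomeronasal receptor level of PEA-exposed mouse 1 was 5.33 (mean log2 over receptor genes), far from the other exposed mice at 1.38 to 1.66. It was the only value to stand apart in this way among 58 groups of 4 values checked, and chance alone marks about 1 group in 20. Groups of 3 mice were not checked, among them the Kir2.1 controls, where mouse 1 was at 6.06. In the same mouse Sox2, Neurog1, Neurod1 and Hes6 had the lowest and Kit and Gap43 the highest value of the exposed group. In a group of 4, any mouse is often the lowest or the highest by chance. The part of vomeronasal RNA in these values was not tested.

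The effects of silencing and of exposure on Omp differed. The Kir2.1 effect minus the PEA effect was -0.904 on the log2 scale (limma adjusted p = 0.0217), the only one called among 26 such differences checked, in which none of the 9 members was. It was -0.67 (limma adjusted p = 0.0344) with the trend on GC content removed. The adjusted p was 0.0747 with the replicate block, 0.129 with the vomeronasal level as a covariate and 0.0987 without the libraries high in it, and it ranged from 0.0165 to 0.0665 with each mouse left out. Library type differed between the experiments, and labels and methods disagree on whether strain did, and these cannot be told apart from the treatments here.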

How the results depend on the processing

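None of the 9 members was called in any of 70 alternative fits. Of 360 member differences under alternatives, 321 kept their direction and 39 turned, none of them called. In the Kir2.1 experiment, Sox2 turned to 0.0086 with quantile normalization and 0.0033 with an Xist covariate, Dpysl3 to -0.013 with quantile normalization and -0.0219 with median centring, and median centring gave -0.01 for Hes6 and -0.0144 for Gng8. With the vomeronasal covariate Hes6 was -0.0155, Kit -0.0494 and Gap43 0.0105, and without the library high in vomeronasal RNA they were -0.0139, -0.0437 and 0.0109. In the PEA experiment, leaving out such libraries gave Sox2 0.6468, Neurog1 0.334 and Kit -0.4924, Kit was -0.0381 with median centring, -0.0473 with the vomeronasal and -0.0596 with the Xist covariate, quantile normalization gave Gap43 0.0294 and Dpysl3 0.0098, and GC correction gave Neurod1 0.1223. With each mouse left out in turn, Kir2.1 differences ran from -0.064 to 0.103 for Dpysl3, -0.165 to 0.0489 for Gap43, -0.0568 to 0.0836 for Gng8, -0.0146 to 0.0748 for Hes6, -0.05 to 0.3507 for Kit, -0.3032 to 0.0571 for Neurog1, -0.0574 to 0.0822 for Sox2 and -0.0335 to 0.2335 for Stmn2, and PEA differences from -0.2443 to 0.1385 for Kit and -0.0909 to 0.0856 for Neurod1. The causes were not tested.

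Calls over all genes moved more. The 70 of the Kir2.1 experiment became 20 without a variance trend, 22 with the vomeronasal and 44 with the Xist covariate, 25 without the library high in vomeronasal RNA, 171 at a threshold of 0.10 and 23 to 44 with a mouse left out. The 31 of the PEA experiment became 52 without a filter, 20 with the vomeronasal covariate, 49 without the libraries high in it (1 control left, its spread assumed equal to that of the exposed mice), 128 at 0.10 and 19 to 43 with a mouse left out. The 74 genes with different effects became 47 at a mean of at least 50, 18 with the vomeronasal and 36 with the Xist covariate, 123 without the libraries high in vomeronasal RNA, 47 with GC correction, 190 at 0.10 and 29 to 161 with a mouse left out. Deviations of same-numbered mice correlated weakly, between -0.06 and 0.16. With so few mice this cannot tell whether the numbers pair the mice, and the methods of the study name littermates in the Kir2.1 experiment. With the replicate block, 9, 23 and 18 genes were called in the Kir2.1, PEA and difference fits, and 0 members. With 3 or 4 mice a group, of unknown depth, the intervals printed above bound what could be seen.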
